A study of Mus musculus with 20 samples.

Results

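Transcript levels in fetal mouse hearts exposed to the highest dose of the dioxin TCDD, 6 µg/kg, were compared with those in control hearts on 12 of the 20 arrays of a dose series. The 4 exposed arrays and the 8 controls were taken by their titles. Dams received TCDD or its corn oil vehicle by oral gavage on gestation day 14.5, and whole fetal hearts were collected on day 17.5; the label of array 1 at 1.5 µg/kg alone writes the treatment day otherwise. The other 8 arrays hold hearts exposed to 1.5 or 3 µg/kg, 4 arrays each. RNA was hybridised to Affymetrix MG-U74Av2 arrays, on which a probe set, aimed at 1 gene or at several like ones, is read as a MAS5 signal, a linear brightness value. The labels name no strain and leave unstated how many hearts or litters went into an array, so a p-value here measures only the spread between arrays, which may be technical.

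TCDD is a long-lived ligand of the aryl hydrocarbon receptor (AhR), a transcription factor that waits in the cytoplasm with Hsp90 chaperones. Once bound by ligand it enters the nucleus, pairs with Arnt and binds DNA at the short core sequence GCGTG, which switches on the cytochrome P450 genes Cyp1a1 and Cyp1b1 and its own repressor Ahrr. Embryonic exposure to TCDD is known for disturbing the growth of the heart and its vessels in fish, birds and mice.

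Array 4 at 6 µg/kg stood apart from the others before any comparison was made. Its mean correlation with the other arrays was 0.9627 across probe sets, the lowest of the 20, where the other 11 arrays compared here had 0.9689 to 0.9765. The log2 ratio of its 3′ to its middle β-actin control probe set was 1.016, against 0.406 to 0.505 for arrays 1 to 3 of the dose. Among the controls that ratio ran from 0.368 to 1.331, and 3 of them also exceeded 0.8. The 3′ to 5′ β-actin ratio of array 4 was not raised, at 0.281 against 0.453, 0.384 and 0.408 for arrays 1 to 3. RNA length was not tested. Below, the β-actin ratio is the 3′ to middle one. Median signals lay between 171.4 and 210.6 on the 12 arrays. Xist, which is transcribed in females, ran from 4.4 to 1601 in controls and read 862.4, 573.5, 561.5 and 175.7 at 6 µg/kg, so both groups spanned a wide range of this transcript. The controls mattered too. Of 138 probe sets named by rule that did not pass against all 8 controls, 20 passed once controls 5 to 8 were left out. Once controls 1 to 4 were left out instead, 0 passed. Of all 8097 probe sets kept, 2.31% passed against controls 1 to 4 alone. Most of the 138 were named for a small p in these data, so the shares are not alike.

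The promoter windows of the pair of genes that changed most are shown because both are direct targets of AhR. Each runs from 250 bases before to 50 bases after the transcription start in RefSeq's GRCm38.p6 annotation, 5′ to 3′ on the gene's strand, with every GCGTG, or CACGC where the core lies on the other strand, in capitals. The Cyp1a1 window is chr9:57697363-57697662 on the plus strand and the Cyp1b1 window is chr17:79715012-79715311 on the minus strand.
Cyp1a1: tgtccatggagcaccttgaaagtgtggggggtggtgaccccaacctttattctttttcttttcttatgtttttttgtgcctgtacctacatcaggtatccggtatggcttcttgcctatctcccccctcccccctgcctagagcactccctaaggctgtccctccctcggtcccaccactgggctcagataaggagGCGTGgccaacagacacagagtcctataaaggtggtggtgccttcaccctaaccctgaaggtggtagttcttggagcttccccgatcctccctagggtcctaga
Cyp1b1: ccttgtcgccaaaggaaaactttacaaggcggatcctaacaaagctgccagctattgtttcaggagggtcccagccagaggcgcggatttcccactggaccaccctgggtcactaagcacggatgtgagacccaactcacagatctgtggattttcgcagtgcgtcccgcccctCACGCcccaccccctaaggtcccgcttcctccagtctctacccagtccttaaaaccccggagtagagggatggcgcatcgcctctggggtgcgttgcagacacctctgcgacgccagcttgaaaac
Each window holds 1 core. Of 32851 windows of the same length in the table, 32.4% hold at least 1 core on either strand. The Ahrr window (chromosome 13) holds 3, a number reached or passed by 3.91% of windows, and the Tiparp window holds 1. Among the other genes that changed at this dose a window was found for Cma1 and, with 2 starts, for Plac8, and no core stands in these windows; nor does one in that of Nqo1. A match describes letters only. The AhR sites of Cyp1a1 that are best known lie in an enhancer further upstream than this window.

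At 6 µg/kg the transcripts of the AhR-driven P450 genes Cyp1a1 and Cyp1b1 rose. The immune genes Cd74 and Plac8 also rose, by less, and the mast cell gene Cma1 fell together with the RNA processing gene Ints9. These 6 are all that passed a Benjamini-Hochberg adjusted p of 0.05 in limma among 8097 probe sets kept after a filter on dim ones, or 0.0741% (4 higher, 0.0494%, and 2 lower, 0.0247%). An unadjusted p under 0.05 was reached by 741 probe sets (9.15%), of which 390 (4.82%) were higher. The 4 exposed arrays all lay above the 8 controls for 0.494% of probe sets and all below them for 0.358%. Fold changes are on the scale log2(signal + 32), which understates the change of dim transcripts.

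**Figure D1:**
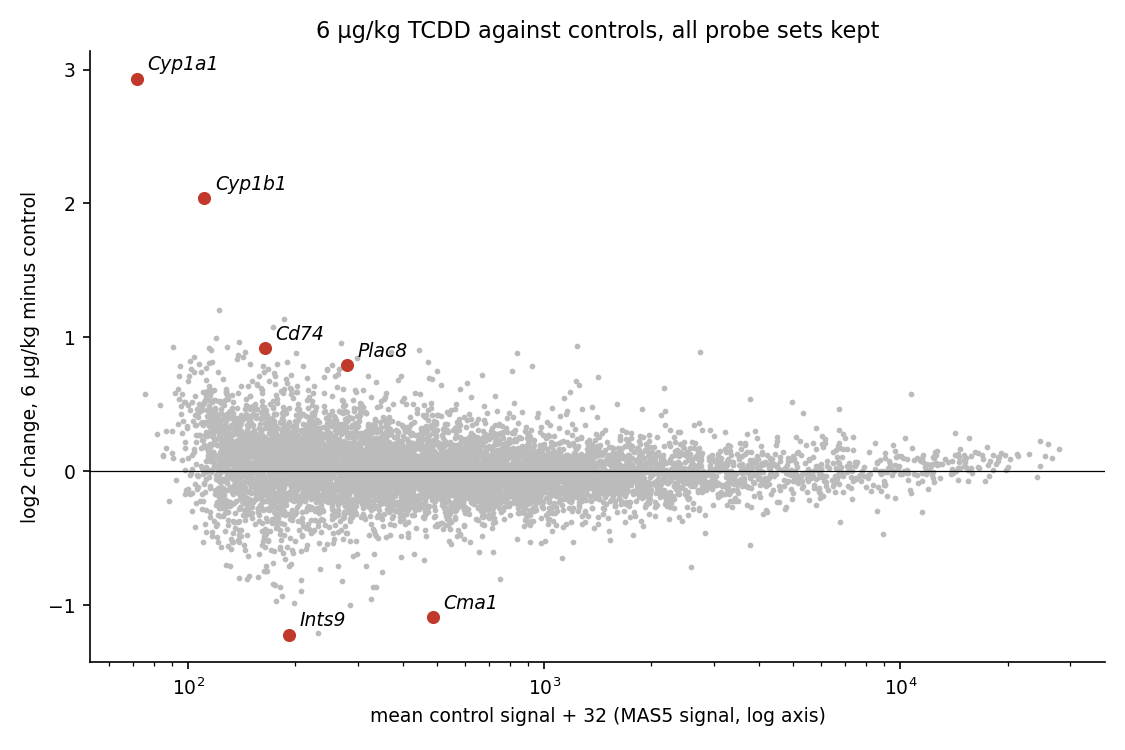
Each point is 1 of 8097 probe sets: the horizontal axis gives the mean control signal plus 32 on a log axis and the vertical axis the log2 change at 6 µg/kg against controls. Red points are the 6 past an adjusted p of 0.05; Cyp1a1 at 2.93 and Cyp1b1 at 2.04 stand above all others.

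Cyp1a1 (chromosome 9, 57687928 to 57703824), the P450 enzyme whose induction is the classic readout of AhR, had control signals from 15.4 to 70.6 with a median of 32.4. At 6 µg/kg its signals were 333.1, 456.4, 688.1 and 548.7 in arrays 1 to 4. The groups did not overlap: the lowest exposed array read 333.1 and the highest control 70.6. The log2 change was 2.93 ± 0.28 (SE; adjusted p = 1.97e-06). A further Cyp1a1 probe set did not follow: it read 128.3, 180.7, 100.4 and 49.7, against 64.5 to 174.0 in controls, a log2 difference of 0.18.

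Cyp1b1 (chromosome 17, 79706940 to 79715061), a P450 that oxidises steroids and polycyclic hydrocarbons outside the liver, ran from 45.9 to 112.2 in controls with a median of 82.2. Its signals at 6 µg/kg were 357.4, 505.5, 384.0 and 441.0, all above every control. The log2 change was 2.04 ± 0.17 (SE; adjusted p = 1.49e-07). Ahrr, which encodes the repressor that competes with AhR for Arnt, lay below the filter on dim probe sets and was compared alone. It read 148.5, 164.9, 110.7 and 130.7 at 6 µg/kg against a highest control of 82.1 (two-sided exact permutation p = 0.00202, which is the floor for 495 splits, and 0.00404 after adjustment over 2 such tests). Cyp1a2, the relative of Cyp1a1 that is abundant in liver, read 31.6, 59.7, 88.9 and 46.0 and overlapped the control range of 20.7 to 95.7 (exact permutation p = 0.317).

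The other genes of the AhR target list stayed short of the threshold. Of 12 on the array 8 passed the filter, 1 of them past the threshold (Cyp1b1), and all 8 lay above controls with a median log2 difference of 0.22, where 48.3% of the 6099 genes measured lay above controls with a median of −0.01. Where a gene has several probe sets the list takes the one with the highest control signal, which for Cyp1a1 is the one that did not follow. Aldh3a1, an aldehyde dehydrogenase, read 119.8, 256.0, 160.9 and 176.1 against 34.1 to 183.4 in controls (log2 0.46, adjusted p = 0.586). Nfe2l2, the antioxidant regulator Nrf2, was at 0.24, the PARP-family gene Tiparp at 0.21 and the quinone reductase Nqo1 at 0.17. Each of these 4 genes overlapped the controls. Without array 4 Tiparp was at 0.07. In the receptor complex, the receptor gene Ahr was at −0.17 (−0.03 without array 4), its partner Arnt at −0.11 (0.02 without array 4) and the chaperone Hsp90aa1 at 0.24 (unadjusted p = 0.0168), and none passed.

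**Figure D2:**
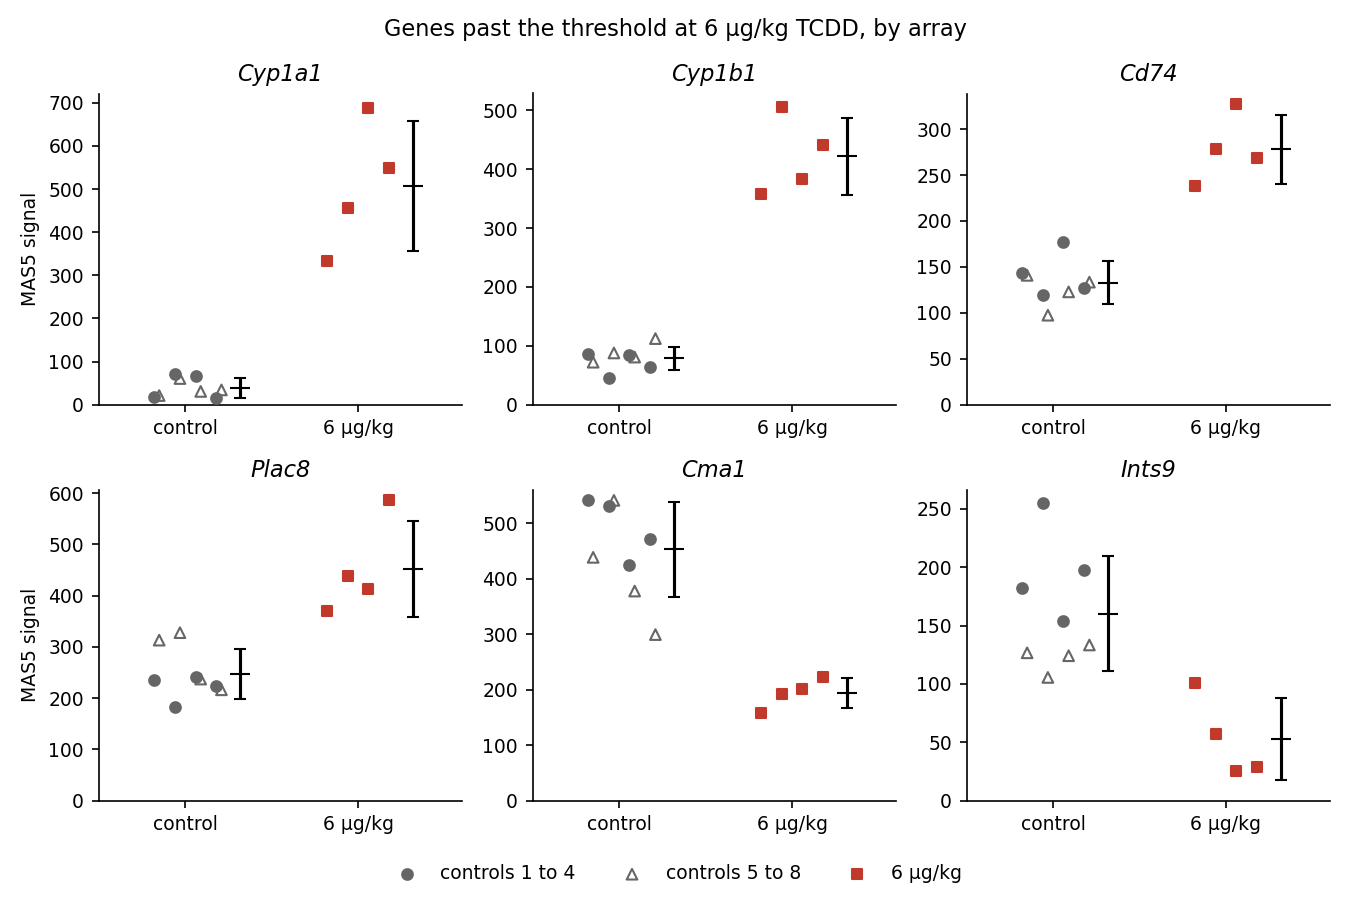
MAS5 signal by array for the 6 genes past the threshold; circles are controls 1 to 4, triangles controls 5 to 8 and squares the 4 arrays at 6 µg/kg, with mean and SD beside each group. No exposed array falls inside the control range in any panel, and the Ints9 controls 5 to 8, at 105.6 to 133.4, lie closest to an exposed array, at 101.2.

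Cd74 encodes the invariant chain that escorts MHC class II molecules in antigen-presenting cells (chromosome 18). It ran from 97.4 to 176.8 in controls with a median of 130.0, and read 237.7, 278.8, 327.3 and 268.3 at 6 µg/kg. Every exposed array lay above every control, and the log2 change was 0.92 ± 0.14 (SE; adjusted p = 0.00285). The call held against either set of 4 controls (adjusted p = 0.0129 against controls 1 to 4 and 0.0205 against controls 5 to 8) and without array 4 (0.0117). It ended (log2 0.86, adjusted p = 0.0779) when the arrays with a β-actin ratio over 0.8 were left out, an alternative chosen after seeing the data.

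The measured genes listed with Cd74 for class II presentation did not move as 1 group. Of 11 listed genes on the array 4 passed the filter. The lysosomal protease gene Ctss, which trims the invariant chain, read 624.0, 671.0, 608.2 and 623.6 against a highest control of 505.9 (log2 0.47 ± 0.10, SE; adjusted p = 0.0877). H2-Eb1, a class II β chain, averaged 131 (SD 95.5) in controls and 213 (SD 78.1) in exposed hearts, with overlap (0.74, adjusted p = 0.537). H2-DMa, a chain of the peptide exchange factor, read 81.2, 81.6, 94.9 and 77.0 against 95.7 to 232.0 in controls, a log2 difference of −0.81 (adjusted p = 0.27). So 2 of the 4, Cd74 itself and Ctss, had all exposed arrays above controls and 1 had all below. Over all probe sets kept these shares were 0.494% and 0.358%. The class II chains H2-Aa and H2-Ab1, which define antigen-presenting cells, were dim throughout, at 16.1 and 47.2 in controls and 21.0 and 52.9 at 6 µg/kg. H2-DMb1, H2-DMb2, H2-Oa, H2-Ob and Ciita, also below the filter, had higher means at 6 µg/kg as well. H2-DMb1 averaged 41.4 (SD 15.5) in controls and 90.7 (SD 49.9) in exposed hearts. Ciita averaged 64.8 (SD 32.1) and 113 (SD 30.1). These differences were not tested.

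Plac8 (chromosome 5, 100551589 to 100572253), expressed in myeloid cells and placenta, ran from 182.5 to 327.9 in controls with a median of 236.2, and read 370.0, 439.3, 412.2 and 587.1 at 6 µg/kg. The groups did not overlap. The log2 change was 0.79 ± 0.15 (SE; adjusted p = 0.0335). This call is the least stable of the 6: it held in 12 of 27 alternative settings and ended, among others, without array 2, 3 or 4 of the dose (adjusted p = 0.153, 0.118 and 0.0886), without controls 1, 2, 3, 4, 7 or 8 (0.0545 to 0.0778) and against controls 5 to 8 (0.565).

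The myeloid genes around it lay mostly above controls. Of 16 neutrophil and granulocyte genes 9 passed the filter, 8 of them above controls, with a median log2 difference of 0.31 (0.49 against controls 1 to 4 and 0.16 against controls 5 to 8). Plac8 alone passed. S100a8, a subunit of calprotectin, a protein of neutrophils, read 381.1, 458.3, 373.3 and 369.6 against a highest control of 320.4 (0.79, adjusted p = 0.0855). Its partner S100a9 read 239.5, 278.5, 178.5 and 206.9 against 62.7 to 221.6, so 2 of 4 arrays lay inside the control range (0.89, adjusted p = 0.197). Ngp, a granule gene that defines neutrophils, was dim in both groups (39.2 and 43.4), and Elane, the neutrophil elastase gene, was at 0.11.

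All 13 measured genes of the macrophage and monocyte list lay above controls, of 19 on the array, with a median of 0.26 (0.26 and 0.22 against the first and the last 4 controls). None passed, and 7 had an unadjusted p under 0.05, where 4.39% of all genes did in that direction. C1qa, a complement component made by tissue macrophages, read 649.3, 583.5, 729.3 and 819.5 and lay above the highest control of 563.3 on every array (0.44, adjusted p = 0.183). The growth factor receptor gene Csf1r was at 0.33. Other members barely differed: Cd68 and Mrc1 were at 0.02 each, and Cx3cr1 was at 0.08 (−0.19 against controls 5 to 8). The list score of an array, its mean log2 deviation from each gene's average, ran from −0.23 to −0.01 in controls and from 0.06 to 0.20 at 6 µg/kg. On the arrays at 1.5 and 3 µg/kg it ran from −0.06 to 0.17, mostly above the controls as well. Adgre1, which encodes F4/80, lay below the filter, with a mean of 50.9 (SD 33.4) in controls and 83.7 (SD 13.7) in exposed hearts. Of the other list genes below it, Fcgr3, Cd53 and Ptprc also had higher means at 6 µg/kg. Fcer1g (21.1 in controls and 21.7 at 6 µg/kg) and Aif1 (19.9 and 17.8) were near background. The differences of genes below the filter were not tested. In whole hearts more cells of a type and more RNA per cell cannot be told apart.

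Genes of the interferon response and of MHC class I lay above controls in 17 of 18 measured (25 on the array), with a median of 0.29, and none passed. Class I molecules display peptides on nucleated cells. H2-K1, a class I heavy chain, read 1174.7, 1299.3, 1518.9 and 1153.3 against a highest control of 1083 (0.37 ± 0.09, SE; adjusted p = 0.151), while its dimmer probe sets were at 0.05 and 0.19. The ubiquitin-like Isg15 read 297.0, 390.9, 692.6 and 410.6 and overlapped a control range of 173.8 to 505.8 (0.55, adjusted p = 0.451), and the peptide transporter gene Tap1 was at 0.32. The list score of 1 control, control 6, was 0.26, inside the exposed range of 0.02 to 0.38, where the other controls had −0.25 to −0.08.

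**Figure D3:**
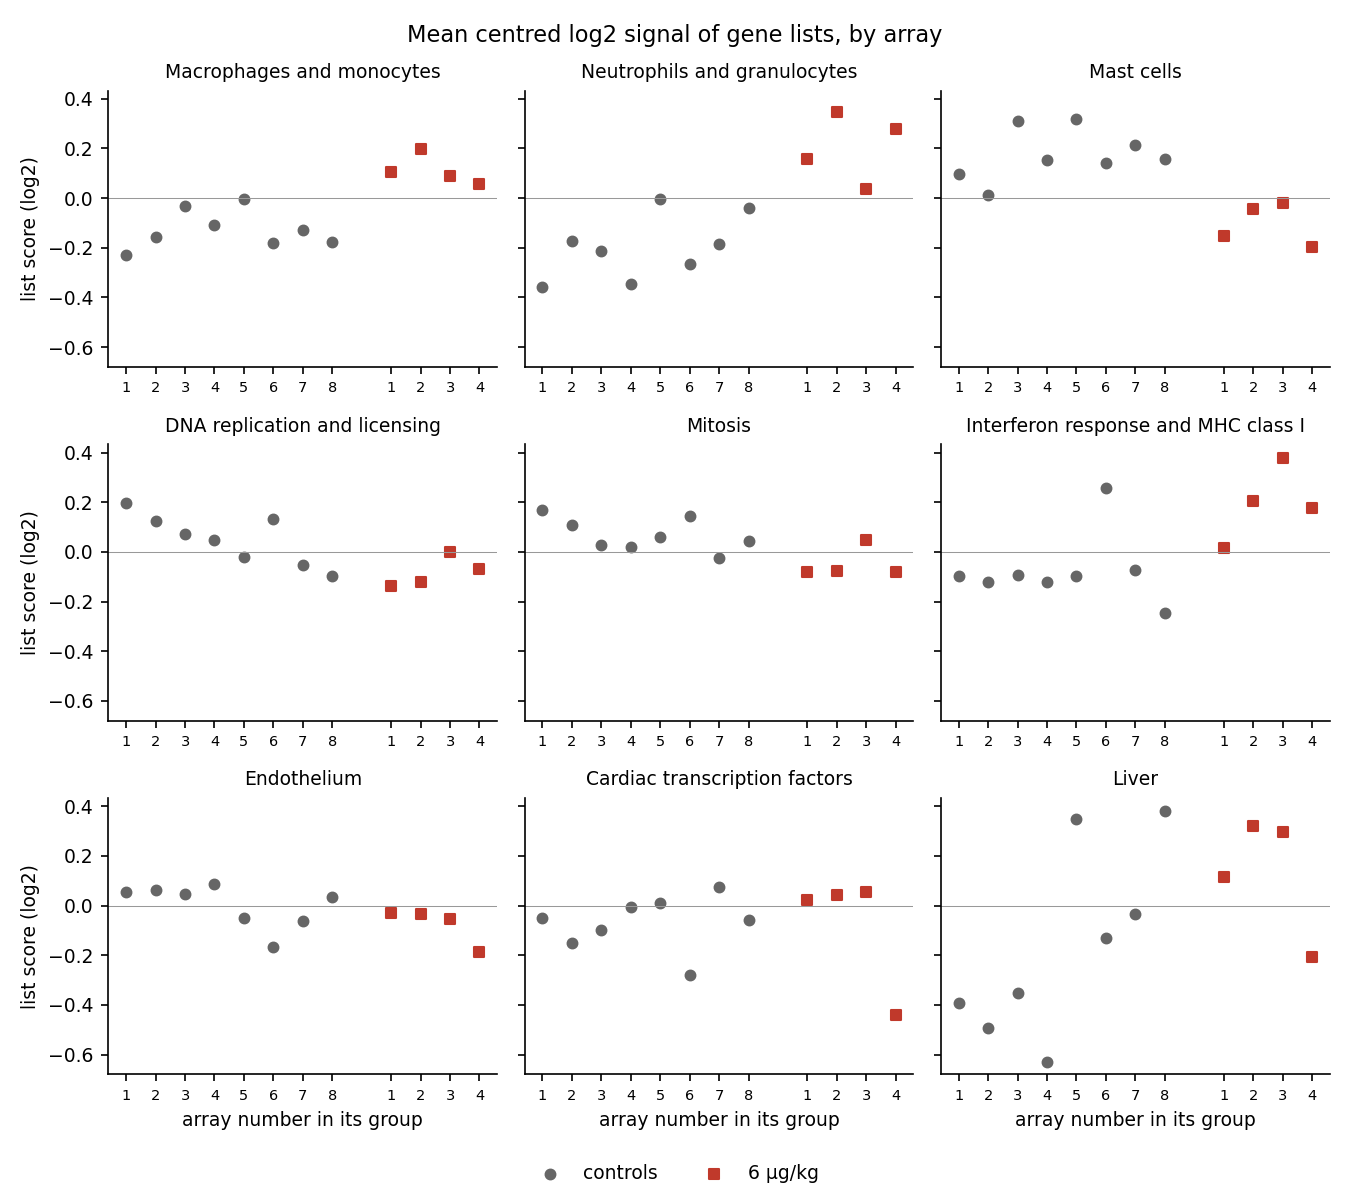
Each panel plots, by array number, the list score in log2 units for 1 gene list; circles are the 8 controls and squares the 4 arrays at 6 µg/kg. All 4 exposed arrays lie above the controls for the macrophage and neutrophil lists and below them for the mast cell list. The neutrophil list includes Plac8 and the mast cell list Cma1, both past the threshold. Array 4 at 6 µg/kg lies apart for cardiac transcription factors, at −0.44.

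Cma1 (chromosome 14, 55941451 to 55944675) encodes the chymase of connective tissue mast cells. Its signals ran from 299.5 to 542.0 in controls with a median of 455.2 and were 158.4, 192.6, 201.9 and 223.1 at 6 µg/kg. The highest exposed array lay below the lowest control. The log2 change was −1.09 ± 0.16 (SE; adjusted p = 0.00263), and −1.15 without array 4 (0.00542). Against controls 5 to 8 alone it was −0.96 and did not pass (adjusted p = 0.186), nor did it pass with the same arrays left out for their β-actin ratio (0.0779). The other pair of Cma1 probe sets lay below the filter, near background in both groups, with every group mean at 32 or less. At 6 µg/kg their means were 26.2 and 23.1, the former above its control mean and the latter below. Signals this dim cannot show whether the fall repeats.

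Other mast cell genes were below controls by less or not at all. Of 14 on the array 7 passed the filter, 5 of them below controls, with a median of −0.15 (51.7% of all genes lay below controls), or −0.08 without array 4. Cpa3, the mast cell carboxypeptidase, read 109.7, 165.0, 150.9 and 93.6 against 154.5 to 242.9 (−0.46 ± 0.18, SE; adjusted p = 0.454), so 3 of 4 arrays lay below the controls. Hdc, which makes histamine, was at −0.27 and the receptor gene Kit at −0.15, while the tryptase gene Tpsb2 was at 0.05 and the protease gene Mcpt1 at 0.06. Mcpt4, Fcer1a and Tpsab1, which also mark mast cells, were near background in both groups, at 16.1 or less. The list score, which includes Cma1, ran from 0.01 to 0.32 in controls and from −0.20 to −0.02 at 6 µg/kg, with no overlap. On the arrays at 1.5 and 3 µg/kg it ran from −0.34 to 0.03, mostly below the controls as well. Whether the groups separate without Cma1 was not tested.

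Ints9 (chromosome 14, 64950045 to 65039835) encodes a subunit of Integrator, the complex that cuts the 3′ ends of small nuclear RNAs. It ran from 105.6 to 254.8 in controls with a median of 143.7, and read 101.2, 57.1, 25.2 and 28.7 at 6 µg/kg. Array 1 lay just under the lowest control and arrays 3 and 4 near background. The log2 change was −1.22 ± 0.22 (SE; adjusted p = 0.0166). The call ended without array 3 or 4 (adjusted p = 0.182 and 0.0569), against controls 5 to 8 (0.446) and with only the 12 arrays in the fit (0.179), with the change between −0.94 and −1.22 in each.

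Of 15 measured genes for Integrator subunits and RNA processing, of 16 on the array, 12 lay below controls, as did 51.7% of all genes. The list median was −0.12 (−0.16 and −0.05 relative to controls 1 to 4 and 5 to 8), and Ints9 alone passed. Celf1, an RNA-binding splicing regulator, read 188.0, 58.9, 50.2 and 25.4 against 149.0 to 277.4 in controls, so array 1 lay inside their range and the others below it (−1.21 ± 0.28, SE; adjusted p = 0.151). Without array 1 it was −1.59 and passed (0.00403). The splicing factor gene Srsf1 was at −0.28. The list score, which includes Ints9 and Celf1, ran from −0.41 to 0.05 at 6 µg/kg, against −0.15 to 0.12 in controls. How the scores lie without these genes was not tested.

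Genes of DNA replication and licensing lay below controls in 32 of 37 measured, with a median of −0.15 (−0.21 and −0.09 against the first and the last 4 controls), and none passed. Mcm7, a subunit of the replicative helicase, read 867.4, 860.2, 822.5 and 806.2, all below the lowest control of 931.2 (−0.39 ± 0.08, SE; adjusted p = 0.0804). It passed with controls 1 to 4 alone (−0.48, 0.00818) and not with controls 5 to 8 (−0.31, 0.77). Cdc45, which joins that helicase at the fork, was at −0.40 (−0.64 and −0.16 by control set) and overlapped the controls (327.4 to 590.0 against 405.0 to 906.9). Gmnn, the licensing inhibitor geminin, lay on the other side at 0.31. An unadjusted p under 0.05 was reached by 3 of the 37 below controls and 1 above, where 4.3% of all genes reached it below.

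Mitosis genes lay below controls in 31 of 37 measured, with a median of −0.09. None passed, and 7 had an unadjusted p under 0.05, all below, where 4.3% of all genes reached it below. Kif4, a chromosome kinesin, read 475.6, 405.5, 414.7 and 353.4 against a lowest control of 482.5 (−0.34 ± 0.09, SE; adjusted p = 0.209). Mad2l1, the spindle checkpoint gene, read 1155.7, 1062.6, 1144.3 and 972.5 against a lowest control of 1174.8 (−0.34, adjusted p = 0.244). The condensin gene Ncaph was at −0.48 and overlapped the controls. Array 3 at 6 µg/kg had a list score of 0.05, inside the control range of −0.02 to 0.17, where the other 3 had −0.08.

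Cardiomyocyte genes, which define the tissue, were among the brightest on the arrays and barely differed. All 16 on the array were measured, 12 lay above controls and none passed, with log2 differences from −0.14 to 0.14 and a median of 0.08. The ventricular light chain Myl2 averaged 22876 ± 1013 in controls and 25062 ± 3018 in exposed hearts (SD, n = 8 and 4), the troponin gene Tnnt2 17819 and 18825, and the α-myosin gene Myh6 15500 and 14887. The β-myosin gene Myh7 was at 0.10 (−0.04 with quantile normalization). Of the natriuretic peptides that report cardiac stress, Nppa was at −0.04 and Nppb at 0.08; both changed sign between alternatives. Nppb read 4589.6, 4739.1 and 5866.9 in arrays 1 to 3 and 8793.6 in array 4, where the controls ran from 4214.1 to 6237.4; without array 4 it was at −0.12.

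Among calcium handling and ion channel genes 8 of 15 measured lay above controls, with a median of 0.02 (−0.04 relative to controls 5 to 8), and none passed. The 3 with the smallest p were all potassium channels below controls. Kcna5, the ultrarapid delayed rectifier, read 344.2, 323.7, 371.4 and 344.0 against a lowest control of 379.4 (−0.39 ± 0.11, SE; adjusted p = 0.244), and passed only with controls 1 to 4 alone among the control sets (−0.47, 0.0463). Kcnj5, a subunit of the atrial acetylcholine-gated channel, read 96.0, 89.0, 54.3 and 29.7 against 89.1 to 209.9 (−0.85 ± 0.23, SE; adjusted p = 0.234). Kcnj8, of the ATP-sensitive channel, was at −0.33. Potassium channels of the list did not all lie below: Kcnq1 was at 0.26, with 440.3 to 661.8 against 267.1 to 521.4 in controls. Cardiac transcription factors had a median of −0.04, which turned to 0.12 without array 4; Mef2a lay at −0.66 relative to controls 1 to 4 (adjusted p = 0.0275) but at 0.00 relative to controls 5 to 8.

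Vessel genes lay mostly below controls, by small amounts. Endothelial genes were below in 13 of 17 with a median of −0.10 (−0.05 without array 4, and −0.14 and −0.03 relative to controls 1 to 4 and 5 to 8), among them the adhesion gene Icam2 (−0.19), whereas Pecam1, which encodes CD31, lay above at 0.59 (346.7 to 525.1 against 186.4 to 411.2). Vegfa, the main vessel growth factor of the heart muscle, read 912.0, 685.0, 917.5 and 736.1 against 829.4 to 1313.5 in controls (−0.31, adjusted p = 0.504). Its receptor genes Kdr and Flt1 were at −0.27 (−0.47 and −0.06 by control set) and −0.18. Smooth muscle genes were below in 7 of 8 (median −0.09), with the contractile genes Smtn at −0.66 and Cnn1 at −0.40 (−0.58 and −0.21 by control set). None of these genes passed.

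Matrix genes showed both directions. Collagens were above controls in 9 of 16 with a median of 0.06 (0.00 and 0.11 relative to controls 1 to 4 and 5 to 8). The basement membrane collagen gene Col4a5 was at −0.44 (adjusted p = 0.244) and the nidogen gene Nid2, from the elastic fibre and basement membrane list, at −0.37, whereas the fibrillar Col1a2 was at 0.26 and the proteoglycan gene Dcn at 0.31. All 4 were farther from controls 1 to 4 than from controls 5 to 8. With the first set Col4a5 lay at −0.63 (adjusted p = 0.00465), Nid2 at −0.54 (0.013), Dcn at 0.54 (0.0469) and Col1a2 at 0.40 (0.0854). With the second set they lay at −0.24, −0.19, 0.08 and 0.12, and none passed. Col18a1, the source of endostatin, read 673.2, 635.1, 613.2 and 718.4 on the probe set with its smallest p, against 707.7 to 1185.2 (−0.52, adjusted p = 0.151), but other Col18a1 probe sets were at −0.02, −0.18 and −0.32. Relative to controls 1 to 4 alone that probe set lay at −0.74 (adjusted p = 0.00147), and relative to controls 5 to 8 at −0.31 (0.914). Col6a1 was at 0.55 on 1 probe set (adjusted p = 0.151) and 0.06 on a brighter one.

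Genes of energy metabolism differed little as groups. Fatty acid uptake and oxidation genes lay below controls in 17 of 24 (median −0.09), led by the fatty acid translocase gene Cd36 (−0.40) and the electron transfer gene Etfb (−0.27). Oxidative phosphorylation and TCA cycle genes lay above in 39 of 61 (median 0.03). Glycolysis genes had a median of −0.03, with Hk1, the first enzyme of the pathway, at 6446.8, 5747.1, 5434.1 and 8175.1 against 7354.7 to 10275.5 (−0.47 ± 0.12, SE; adjusted p = 0.204). Array 4 was the one inside the control range, and Hk1 passed with arrays weighted by quality (0.0469) and with controls 1 to 4 alone (−0.56, 0.0499), not with controls 5 to 8 (−0.38, 0.914). The glucose transporter gene Slc2a1 was at −0.36.

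**Figure D4:**
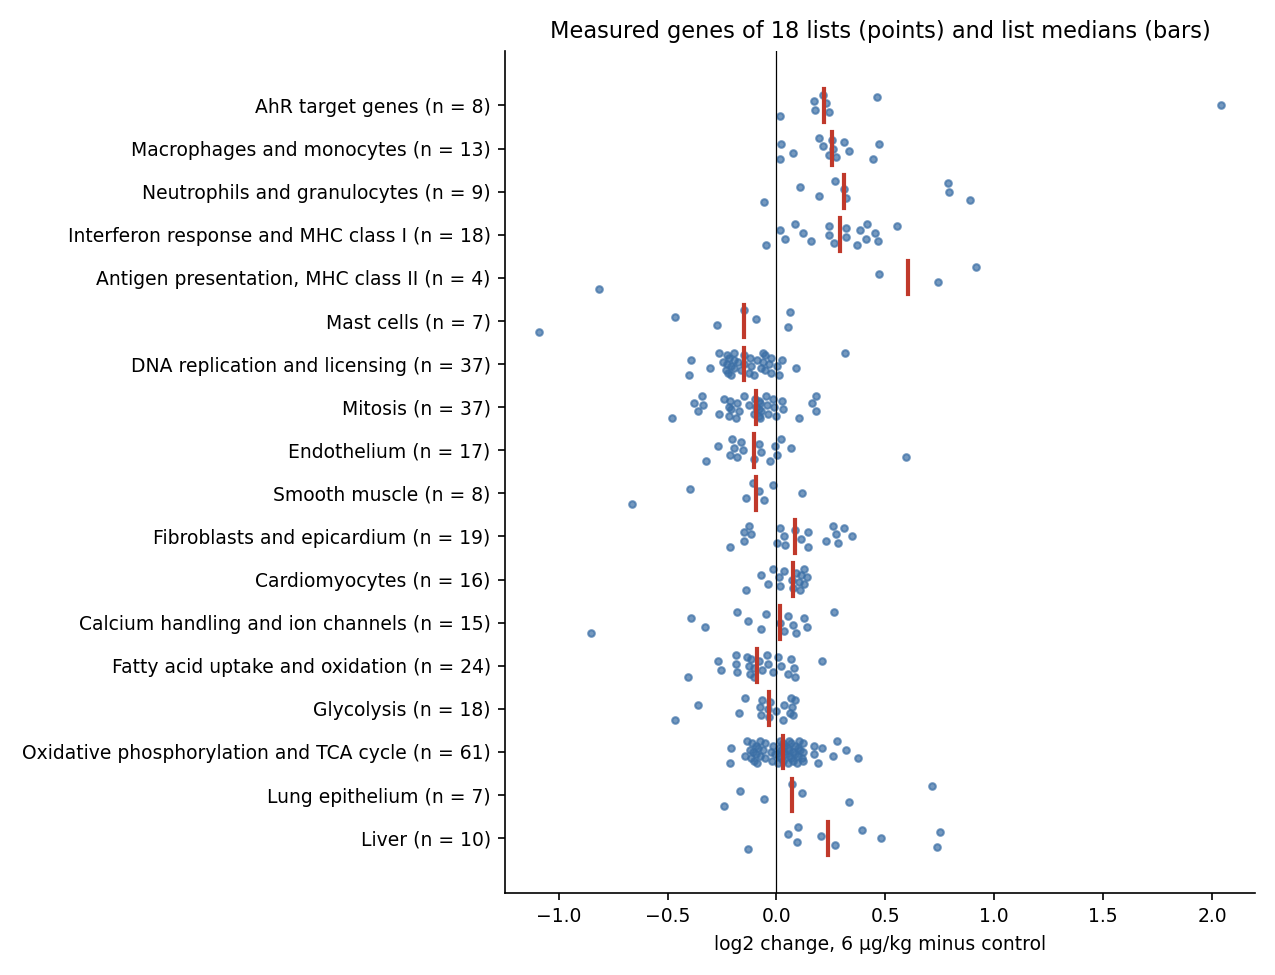
Each point is a measured gene of 1 of 18 gene lists, placed by its log2 change at 6 µg/kg against controls, and red bars are list medians. Medians run from −0.15 for replication and mast cells to 0.61 for MHC class II, which has 4 measured genes spread from −0.81 to 0.92.

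Markers of neighbouring tissues were read beside the groups above. Liver genes, plasma proteins that the heart does not make in quantity, lay above controls in 9 of 10 measured, with a median of 0.41 against controls 1 to 4 and 0.06 against controls 5 to 8. Their summed signal ran from 1312 to 2947 in controls and from 1665 to 2989 at 6 µg/kg, so the ranges overlapped. Lung epithelial genes lay above in 4 of 7, with summed signals of 1266 to 4091 and 1461 to 5082, and erythroid genes in 6 of 9. The medians of both lists turned with the controls: lung genes lay at 0.18 relative to controls 1 to 4 and −0.05 relative to controls 5 to 8 (−0.06 without array 4), and erythroid genes at 0.31 and −0.07. The thymus and lymphocyte list was split, 4 of 8 above, and its defining genes Cd3e and Ptcra were near background, at 29.1 or less. Whether these tissues had a part in the myeloid and class I values was not tested.

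The remaining genes with the smallest p did not pass here and passed in 0 to 3 of their alternatives each. Above controls they were Csf2rb2, a cytokine receptor chain (0.60), Irf2bp1, a corepressor (0.40), and Fam83g (0.99), and all exposed arrays of Csf2rb2 and Irf2bp1 lay above the controls. Below controls they were Eps15l1, an endocytic adaptor (−0.97), the nucleoside transporter gene Slc29a2 (−0.90), the mannose-pathway enzyme gene Pmm1 (−0.99), the DNA damage mediator gene Trp53bp1 (−0.44), Foxk2 (−0.43), the oligosaccharyltransferase gene Rpn2 (−0.42) and the mitochondrial ribosomal gene Mrps7 (−0.41). The adjusted p of these genes lay between 0.151 and 0.195. Eps15l1 averaged 58.1 and at most 70.3 in exposed hearts, against a lowest control of 98.3. Rpn2 had a brighter probe set at −0.19.

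The choice of controls and of array 4 set how many genes passed. Against controls 1 to 4 alone 187 probe sets passed (2.31%), and against controls 5 to 8 alone 3 passed (0.0371%), namely Cyp1a1, Cyp1b1 and Cd74. The 6 genes above were all among the 187. Without array 4 there were 12, of which Cyp1a1, Cyp1b1, Cma1 and Cd74 also passed with it. Among the others, named after their values were seen, were Tram1, a translocon protein (log2 0.96, adjusted p = 0.00542), Rabggta, which prenylates Rab proteins (−1.40, 0.0125), the kinase gene Mapk7 (−1.14, 0.0318) and the initiation factor gene Eif3d (−0.47, 0.043). With array 4 none of these 4 passed (adjusted p = 0.239 to 0.319), and a dimmer Tram1 probe set lay on the other side, at −0.34.

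**Figure D5:**
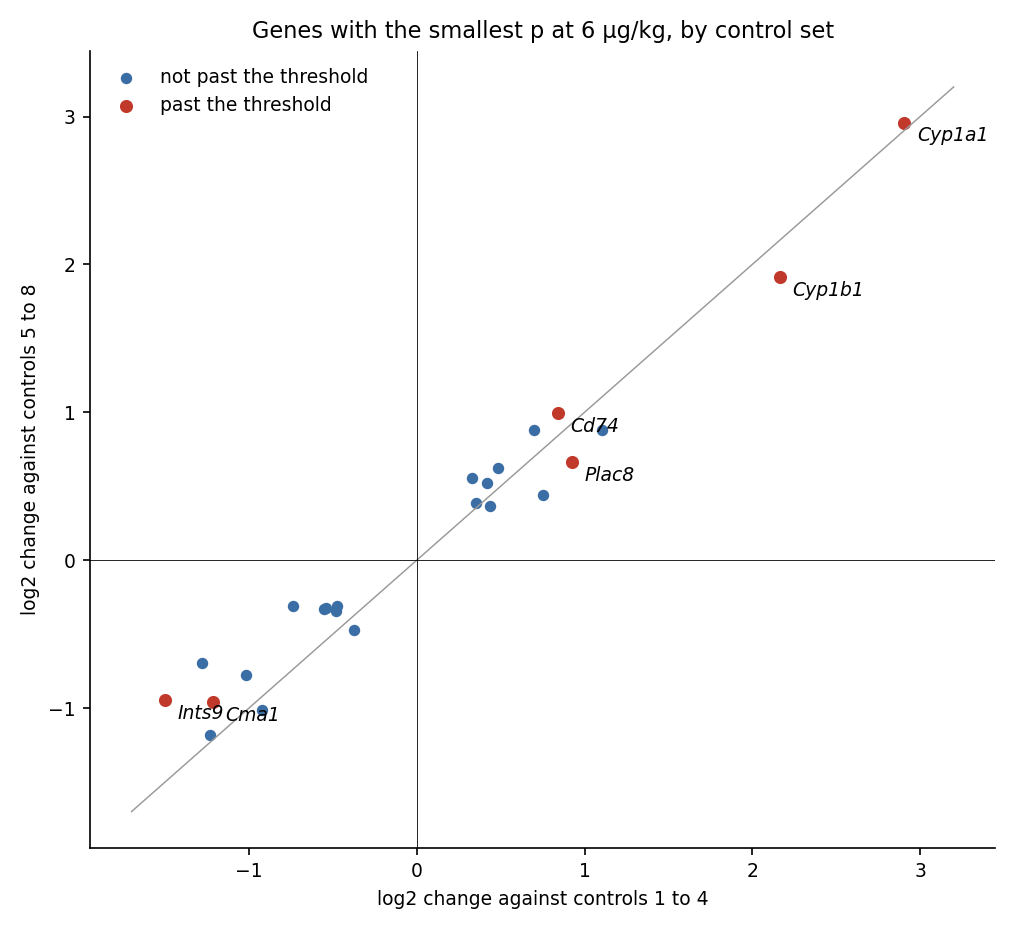
Log2 change at 6 µg/kg against controls 1 to 4 (horizontal) and against controls 5 to 8 (vertical) for the genes with the smallest p; red points passed against all 8 controls and the line marks equal change. Every gene keeps its direction, and Ints9, at −1.50 and −0.94, is among those farther from the first set.

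Whether 6 µg/kg differed from the lower doses was tested in the same fit. Ints9 averaged 207 ± 38.4 in the 1.5 µg/kg arrays and 183 ± 35.6 in the 3 µg/kg arrays (SD, n = 4 each), and at 6 µg/kg it was lower than at both (log2 −1.56, adjusted p = 0.00941, and −1.41, adjusted p = 0.0282). It was the single gene of the 6 to differ. Cyp1a1 was above the 1.5 µg/kg arrays by 1.17 (adjusted p = 0.0919) and above the 3 µg/kg arrays by 0.81 (0.343), and Cyp1b1 by 0.65 (0.107) and 0.59 (0.248). Cma1 was at −0.20 and −0.29 and Cd74 at 0.19 and 0.31 (adjusted p = 0.477 to 0.658). Plac8 was at 0.50 and 0.21 (0.165 and 0.679). A p above the threshold does not show equal levels. With array 1 at 1.5 µg/kg left out for its label, an alternative chosen after seeing the data, Ints9 was at −1.62 (adjusted p = 0.0371) and Cyp1a1 and Cyp1b1 at 0.88 and 0.51 (0.289 and 0.303).

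In all, 28 probe sets differed between 6 and 1.5 µg/kg (0.346%), 24 of them lower at 6 (0.296%) and 4 higher (0.0494%), and 3 between 6 and 3 µg/kg (0.0371%), all lower at 6. Those 3, Ints9, Igf2bp1 and Ank3, differed from both doses and were named after their values were seen. Igf2bp1, an RNA-binding protein of fetal growth, read 380.8, 412.1, 303.2 and 415.2 at 6 µg/kg, and averaged 915 at 1.5, 811 at 3 µg/kg and 563 in controls. It was at −1.21 and −1.05 against these doses (adjusted p = 0.00848 and 0.0282) and at −0.51 against controls (0.319). Ank3, the membrane adaptor ankyrin-G, averaged 381 at 6 µg/kg, 987, 943 and 587 in the same order, at −1.31, −1.23 and −0.53 (0.00941, 0.0282 and 0.403). By their means both were lowest at 6 µg/kg and highest at the lower doses, with the controls between. A brighter Ank3 probe set did not follow, at 0.05 against controls. Without array 2 or 3 of the 6 µg/kg group no probe set differed from 3 µg/kg in limma (750 and 769 at an unadjusted p under 0.05), and 2 and 6 differed from 1.5 µg/kg. Leaving out any 1 of the 3 µg/kg arrays also gave 0 against that dose (716 to 1023 at an unadjusted p under 0.05). Without array 1 at 1.5 µg/kg 3 probe sets differed from that dose, Ints9, Igf2bp1 (−1.15, adjusted p = 0.0371) and Ank3 (−1.32, 0.0412), and without array 2 there were 2.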

How the data were processed

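The 20 MG-U74Av2 arrays measured RNA of whole fetal hearts. The authors deposited MAS5 signal, an intensity on a linear scale for each probe set; MAS5 is named in the submitters' processing notes and its version is not given in the sources used here. The deposited arrays were already scaled alike, with 2% trimmed means of 500.28 to 500.341. Precision is limited by how many arrays there are, and the median SE of a log2 change was 0.14.

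Of 12488 probe sets 66 AFFX controls were left out. Arrays were scaled to a trimmed mean of 500, and probe sets were kept where at least 4 of the 20 arrays reached their own 40th percentile (8097 of 12422, standing for 6099 genes). Gene symbols came from the platform annotation: 10833 probe sets carry 1 symbol, 396 several and 1193 none, and 10815 of the symbols stand in RefSeq's gene table (GRCm38.p6), the source of gene locations. Values were taken as log2(signal + 32). A model of all 20 arrays with a mean per group was fitted with limma 3.58.1 in R 4.3.3 (lmFit, contrasts.fit, eBayes with an intensity trend), two-sided, with Benjamini-Hochberg adjustment over 8097 probe sets in each comparison and a threshold of 0.05. It was tried on simulated data of independent normal noise, with 200 of 8097 probe sets changed. Of changes of 1.5-fold 61.5% were recovered, with 3 of 126 calls false. Of changes of 2-fold 93% were recovered, with 14 of 200 calls false. The noise held no shared array effect and no gap between control sets, so the simulation cannot speak to either. AhR genes named by rule that fell below the filter were compared by exact permutation over the 12 arrays.

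The 44 gene lists are described by counts and medians on 1 probe set per gene, the one with the highest control signal, with no set test. The genes compared, the lists and the tests were chosen with earlier results of these data known. Genes named in the text are those past the threshold, the 12 higher and 12 lower genes with the smallest p, 12 fixed AhR and cardiac genes, and, as examples, the genes of each list with the smallest p (up to 3). Members named beyond these complete a short list or mark a cell type. Alternatives were quantile normalization, the deposited scaling, a pseudocount of 1 or 100, a filter at the 60th percentile or none, either set of 4 controls, the replicate number as a block, only the 12 arrays, no intensity trend, array weights, a covariate for the 3′ to 5′ ratio of the control probe sets, a minimum change of 1.5-fold and leaving out each array. The array at 1.5 µg/kg whose label writes another treatment day was kept in its titled group. Plots were drawn with matplotlib 3.10.9.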

Additional observations from a re-analysis of the deposited data

Results flagged for a closer look

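Within the 8 controls or the 4 arrays at 6 µg/kg, 1 array lay far from the others of its group by Dixon's test in 12 of 154 groups of values examined, where chance gives about 1 in 20. Array 4 at 6 µg/kg accounted for 5 of these, all list scores. It was at −0.44 for cardiac transcription factors (the others 0.02 to 0.05), −0.18 for calcium handling and ion channels (−0.03 to 0.00), −0.19 for endothelium (−0.05 to −0.03), −0.24 for skeletal muscle (0.14 to 0.21) and 1.01 for platelets (−0.36 to −0.26), a list with 1 measured gene, the thromboxane receptor gene Tbxa2r.

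Control 6 accounted for 4 list scores. It was at −0.23 for collagens (the other controls −0.08 to 0.04), −0.31 for the IGF axis and imprinted growth genes (−0.07 to 0.04), −0.14 for Integrator and RNA processing genes (0.02 to 0.12) and 0.26 for interferon response and MHC class I genes (−0.25 to −0.08). The mitosis score of array 3 at 6 µg/kg was 0.05, where the other 3 were at −0.08. Among named genes, S100a8 read 458.3 in array 2 at 6 µg/kg (the others 370 to 381), and Pmm1 read 44.7 in control 7 (the other controls 147 to 256), which lies within its range at 6 µg/kg.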

How the results depend on the processing

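The count of 6 probe sets against controls was 187 against controls 1 to 4, 3 against controls 5 to 8, 10 with array weights, 2 with a minimum change of 1.5-fold (Cyp1a1 and Cyp1b1), 3 with the 4 arrays of a β-actin ratio over 0.8 left out (chosen after seeing the data) and 4 to 12 with each array left out. With the replicate block, described below, it was 122, and in the other alternatives it was 4 to 8. Cyp1a1 and Cyp1b1 passed in all 27. The replicate numbers of the labels did not pair the arrays (correlations of same-numbered deviations of −0.092, −0.063, −0.022 and 0.169), and with the replicate block the counts were 99 against 1.5 µg/kg, 22 against 3 µg/kg and 122 against controls. The last changed the control set too, since controls 5 to 8 share no number with an exposed array and so drop out of the contrast. Against 1.5 µg/kg the count was 44 with quantile normalization and 2 to 38 with an array of either dose left out, and against 3 µg/kg 0 to 6 (the lower-dose arrays were left out after seeing the data). For these counts the cause was not tested.

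Log2 changes that changed sign were Mef2a (0.002), Ppargc1a (0.059) and Nppa (0.059) against controls 5 to 8, Actn3 against controls 1 to 4 and with the block (−0.010 each), Myh7 with quantile normalization (−0.040), Nppb with array weights (−0.032), and Pvalb (0.005), Nppb (−0.014) and Nppa (0.035) with those 4 arrays left out. With 1 array at 6 µg/kg left out, changes ran from −0.412 to 0.075 (without array 3) for Ncoa1, −0.178 to 0.017 (array 4) for Arnt, −0.028 (array 2) to 0.432 for the further Cyp1a1 probe set, −0.118 (array 4) to 0.193 for Nppb and −0.1 to 0.008 (array 2) for Nppa. The number of the 44 lists with a median above 0 was 29, and 22 to 32 under its alternatives. Signals under about 100 lie near background, so the sizes for Cyp1a1, Cyp1b1 and Ints9 depend on the pseudocount: 3.82, 2.43 and −1.74 with 1, and 2.10, 1.54 and −0.77 with 100.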

Other observations

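A few groups not described above held single genes apart from their list. Among 10 measured genes of neurons and Schwann cells, Th, which makes the catecholamine precursor, read 212.1, 256.5, 144.7 and 238.9 against 78.8 to 159.8 in controls (log2 0.65, limma adjusted p = 0.396), and the neuronal tubulin gene Tubb3 was at 0.35 (0.396). Without a pass, 7 of the 10 lay above controls, with a list median of 0.21 relative to controls 1 to 4 and −0.02 relative to controls 5 to 8. The mevalonate kinase gene Mvk, of cholesterol synthesis, read 301.3, 470.3, 428.5 and 296.4 against 228.3 to 314.0 (0.45, adjusted p = 0.27) in a list with a median of 0.05. Among 30 chaperone genes Pdia3, chosen after its values were seen, lay at 1.79 relative to controls 1 to 4 but at −0.03 relative to controls 5 to 8, while Canx (0.50) and Tcp1 (0.30) lay above both sets and Pdia6 (−0.40) below both.

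Cytoplasmic ribosomal protein genes lay above controls in 14 of 21 measured with a median of 0.05 (0.01 without array 4), and proteasome genes below in 20 of 31 with a median of −0.06 (−0.02 and −0.07 against the first and the last 4 controls). The chemokine gene Ccl9 was at 0.54 (adjusted p = 0.396) in an inflammation list of which 16 of 25 genes, Il6, Tnf and Il1b among them, lay below the filter. The imprinted growth gene Dlk1 was at 0.32 and did not pass.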
